A study of Branchiostoma belcheri with 2 samples.

Results

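The miRNAs described here are those that in vertebrates are best known from immune cells, blood cells and blood vessels: miR-21, miR-27, miR-126, miR-132, miR-142, miR-144, miR-146, miR-150, miR-155, miR-181, miR-212, miR-223 and miR-451. They were measured in the gill of Branchiostoma belcheri, a species of amphioxus, which are chordates without a backbone. Members were chosen by name alone, as every probe carrying exactly one of those 13 numbers after its species prefix, with any letter or arm suffix. This gave 58 of the 1686 miRNA probes on the array. Of the 58, 26 were designed for zebrafish (prefix dre), 16 for sea lamprey (pma), 10 for a clawed frog (xtr), 5 for the tunicate Ciona intestinalis (cin) and 1 for its relative Ciona savignyi (csa). None of the 13 families had a probe among the 260 that were designed for amphioxus miRNAs (bbe for B. belcheri, bfl for Branchiostoma floridae), so all the values below come from probes made for other chordates.

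The study set 1 LPS array against 1 control array, both hybridised with Cy3-labelled total RNA of gills. LPS animals had 15 µl of lipopolysaccharide, a cell wall component of Gram-negative bacteria, at 1 mg/ml in PBS injected into the body cavity, and their gills were taken after 12 h. Control animals had the same volume of PBS, and the label of their array gives no time. All were adults kept at 25 °C after injection. The sources used here do not say how many animals went into an array. With 1 array per group there is no replicate check and no p-value, and the repeat spots of a probe, 2 on each array, show only technical spread.

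A miRNA is a short RNA that guides an Argonaute protein to messenger RNAs, which are then translated less or degraded. Pairing depends most on the seed, bases 2 to 8 from the 5′ end, and miRNAs with the same seed are grouped as relatives. In mammals miR-146 and miR-155 are induced by LPS through NF-κB signalling, miR-142, miR-150 and miR-223 mark white blood cells, miR-144 and miR-451 are made together in red cell precursors, and miR-126 marks the endothelium.

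The target sequences of the 10 members that gave signal above the empty spots on either array are shown first, as the array files list them, with the seed in capitals.
pma-miR-144-3p: uACAGUAUauaugaugugcugc
xtr-miR-146a: uGAGAACUgaauuccauagguu
xtr-miR-27b: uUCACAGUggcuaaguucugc
dre-miR-181a-3p: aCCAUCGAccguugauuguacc
pma-miR-181b-5p: gACAUUCAgugcugucggugggu
dre-miR-181b: aACAUUCAuugcugucgguggg
dre-miR-212: uAACAGUCuacagucauggcu
pma-miR-132-3p: uAACAGUCuacagccauggac
dre-miR-155: uUAAUGCUaaucgugauagggg
dre-miR-142b-5p: cAUAAAGUagacagcacuacua
The zebrafish forms of the best known immune and blood miRNAs that gave none are shown for comparison, again with the seed in capitals.
dre-miR-146a: uGAGAACUgaauuccauagaugg
dre-miR-223: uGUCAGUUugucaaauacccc
dre-miR-142a-3p: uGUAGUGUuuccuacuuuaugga
dre-miR-150: uCUCCCAAuccuuguaccagug
dre-miR-451: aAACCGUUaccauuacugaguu

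The 58 sequences were all different and held 27 seeds. Of these, 1 was also the seed of amphioxus probes, at bases 2 to 8, while 10 occurred at some position within one. The shared seed was AUGGCUU, that of the tunicate probe cin-miR-132-5p, which 3 amphioxus miR-135 probes share. The closest amphioxus probe to any member lay at least 6 edits away (substitutions, insertions or deletions), with a median of 9 and a maximum of 11. Shown with the seed in capitals, cin-miR-132-5p and bbe-miR-135a-5p, its closest amphioxus probe, were 6 edits apart, and dre-miR-155 and bfl-miR-4880, the closest to it, were 7 edits apart.
cin-miR-132-5p: uAUGGCUUuuacauuccugugu
bbe-miR-135a-5p: uAUGGCUUucauccuauguga
dre-miR-155: uUAAUGCUaaucgugauagggg
bfl-miR-4880: uUUGCUAUucgaugaccagugg
The intensity of bbe-miR-135a-5p was 5014 on the LPS array and 20499 on the control array, whereas cin-miR-132-5p, which shares its seed, stood at 89.1 and 105.0, below both thresholds. The other 9 detected members were 7 to 10 edits from their closest amphioxus probe.

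The intensities below are the deposited median pixel values of a spot, on the scanner's arbitrary linear scale with no background subtracted. The 304 empty spots, which carry no probe, had a median of 99.8 on the LPS array and 107.3 on the control array. A probe counted as detected when the mean of its repeat spots exceeded the 95th percentile of that array's empty spots, which was 143.5 on the LPS array and 121.9 on the control array. The spread of empty spots was also wider on the LPS array, with an SD of 30.5 against 10.6 on the control array. Empty spots paired at the same spacing as the repeat spots of a probe passed by their mean in 10 of 174 pairs (5.75%) on the LPS array and in 1 of 174 pairs (0.575%) on the control array.

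Few of the vertebrate immune and blood miRNAs gave signal, and none did so on both arrays. On the LPS array 4 of 58 members were detected (6.9%), beside 20.1% of all 1686 probes. On the control array 6 of 58 were detected (10.3%), beside 38.4% of all probes. Detection on either array held for 10 of 58 members (17.2%, beside 40.6% of all probes), and detection on both arrays for 0 of 58, beside 18.0% of all probes. Of the amphioxus probes, 53.8% were detected on the LPS array, 78.1% on the control array, 78.5% on either and 53.5% on both. The remaining 48 members lay between 79.7 and 128.6 on the LPS array and between 101.1 and 121.9 on the control array.

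A nearer comparison is with other low-numbered miRNAs of the same 5 species, split by whether amphioxus probes carry their number. Of the 282 other miR probes numbered under 1000 whose number no amphioxus probe carries, 6.38% were detected on the LPS array, 22.0% on the control array and 24.1% on either. Of the 217 whose number an amphioxus probe does carry, 35.5% were detected on the LPS array, 60.4% on the control array and 61.3% on either. Beside these stand the members' 6.9% on the LPS array, 10.3% on the control array and 17.2% on either.

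The detected members were also dim. The member with the highest mean on the LPS array was pma-miR-144-3p at 260.7, and on the control array it was pma-miR-181b-5p at 198.4. The brightest miRNA probe of any kind, by the mean of its repeat spots, reached 74432 on the LPS array and 65388 on the control array. Single spots of the control array stopped at 65535, a value that 16 spots of the LPS array exceeded, and whether the LPS scan was rescaled is not stated. Pairs of empty spots reached means of up to 247.2 on the LPS array and 161.2 on the control array, which 1 member exceeded on each array.

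By species, the zebrafish probes had 1 of 26 members detected on the LPS array and 4 of 26 on the control array, beside 18.4% and 37.2% of all zebrafish probes. The lamprey probes had 1 and 2 of 16, beside 11.7% and 30.7%, and the frog probes 2 and 0 of 10, beside 20.7% and 37.9%. The 5 members for Ciona intestinalis were detected on neither array, beside 9.21% of its probes on the LPS array and 22.5% on the control array. The single member for Ciona savignyi was also detected on neither, beside 50% of its 10 probes on the LPS array and 80% on the control array. Nearest to the threshold on the LPS array were dre-miR-126a-3p at 128.6 outside it and xtr-miR-146a at 148.0 inside it. On the control array they were dre-miR-27c-3p at 121.9 outside and pma-miR-132-3p at 131.9 inside. In the authors' deposited table, 13 members stood at its lowest value of 0.01 on the LPS array (22.4%, beside 35.1% of all probes). On the control array 0 members did, beside 0.119% of all probes.

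Among the miRNAs of blood cells and vessels, miR-126, miR-150, miR-223 and miR-451 had no probe whose mean passed on either array. The miR-126 family, which in vertebrates lies in an intron of the endothelial gene Egfl7, had 6 probes with means of 102.3 to 128.6 on the LPS array and 101.1 to 115.3 on the control array. Its highest was dre-miR-126a-3p, with spots of 103.6 and 153.7 on the LPS array and 113.0 and 104.9 on the control array. The single LPS spot above the threshold did not lift the mean of dre-miR-126a-3p past it. The lymphocyte miRNA miR-150 was highest in xtr-miR-150, with spots of 114.1 and 107.0 on the LPS array and 106.1 and 112.9 on the control array. The myeloid miRNA miR-223 had the single probe dre-miR-223, with spots of 113.2 and 108.1 on the LPS array and 107.6 and 107.6 on the control array. All spots of these miR-150 and miR-223 probes lay below the thresholds. The red cell miRNA miR-451, whose precursor is cut by Argonaute 2 instead of Dicer, was highest in pma-miR-451, with spots of 87.1 and 105.8 on the LPS array and 114.4 and 113.1 on the control array. On the LPS array dre-miR-451 had the lowest mean of all members, 79.7.

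The other red cell miRNA, miR-144, had the brightest spot of any member. The sea lamprey probe pma-miR-144-3p read 110.9 and 410.5 on the LPS array and 114.5 and 120.9 on the control array. One spot therefore lay far above the threshold, while its repeat on the same array lay among the empty spots. The pixel SD of the bright spot was 696.7, above its own median, and that of its repeat was 17.7. After normexp background correction and quantile normalization, pma-miR-144-3p was higher on the LPS array by 1.47 ± 1.37 on the log2 scale (SE over repeat spots), against an array on which it was not detected. The counting rule (detected on an array, 2-fold or more, repeat spots of the arrays apart) took 1 member as higher, this one, beside 10.5% of the 684 detected probes, and 0 members as lower, beside 10.5%. Since pma-miR-144-3p passed detection through the LPS array alone, nothing is read from its count, which was 0 without uneven spots or with both repeat spots required above the threshold. Without the bright spot, and with it the second control spot, the difference was 0.15, and the authors' deposited table gave 11.5 on the LPS array and 6.91 on the control array. In bulk gill RNA, a change in the number of cells of a type and one in RNA per cell cannot be told apart. The zebrafish and frog probes dre-miR-144 and xtr-miR-144 have the seed of pma-miR-144-3p. Their means were 106.5 and 89.2 on the LPS array and 115.4 and 102.5 on the control array.

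Of the miR-142 family, made throughout the white blood cell lineages of vertebrates, 1 of 4 probes passed, on the control array. The zebrafish probe dre-miR-142b-5p read 130.7 and 112.6 on the LPS array and 136.8 and 131.0 on the control array. Its higher LPS spot lay just below its lower control spot, and its log2 difference was 0.08 ± 0.17. The paralog dre-miR-142a-5p differs from it by C12A (positions counted from 1 at the 5′ end of the first-named) and by 1 base of length, and its means were 118.6 on the LPS array and 112.0 on the control array. The opposite arm, dre-miR-142a-3p, stood at 98.2 on the LPS array and 102.0 on the control array.

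Of the LPS-induced miRNAs of mammals, miR-146, whose mammalian targets include the Toll-like receptor signalling proteins TRAF6 and IRAK1, had 1 of 6 probes detected, on the LPS array. The frog probe xtr-miR-146a read 190.6 and 105.5 on the LPS array and 120.3 and 104.4 on the control array. Its first LPS spot passed, and the repeat lay near the median of the empty spots. The pixel SDs of these LPS spots were 12.9 and 8.52, small beside their medians. Its log2 difference was 0.76 ± 0.66, which did not reach 2-fold, and 0.26 without the first spots. The lamprey probe pma-miR-146-5p differs from xtr-miR-146a by U21C alone and had means of 101.1 on the LPS array and 116.4 on the control array. The zebrafish probe dre-miR-146a, which differs by G20A, U22G and 1 base of length, had means of 117.7 on the LPS array and 114.3 on the control array. None of the 4 other probes with the seed GAGAACU passed on either array.

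The second LPS-induced miRNA, miR-155, had 1 of 4 probes detected, on the control array. The zebrafish probe dre-miR-155 read 110.8 and 98.9 on the LPS array and 140.5 and 139.2 on the control array. Both control spots passed. The probe passed detection through the control array alone, so nothing is read from its direction. The log2 difference of dre-miR-155 was -0.28 ± 0.10, lower on the LPS array and under 2-fold. But it was 1.02 with median scaling, which aligned the arrays by their medians over only the probes detected on both arrays. It was 0.78 when scaled to the calibration spots, and 0.30 with the median difference of the probes detected on both arrays set to 0. In the authors' deposited table dre-miR-155 stood at 5.01 on the LPS array and 15.69 on the control array, a difference of -1.47 in log2 after adding 1. The tunicate probe cin-miR-155, which differs by C12A and 1 base of length, had means of 93.2 on the LPS array and 108.4 on the control array. The csa-miR-155 and pma-miR-155 probes were likewise below the thresholds, at 98.1 and 107.1 on the LPS array and 103.4 and 117.9 on the control array.

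miR-21, a widely made miRNA that is high in inflamed mammalian tissue, was represented by dre-miR-21 alone. It read 103.5 and 96.3 on the LPS array and 115.5 and 108.3 on the control array, and was detected on neither. The clustered miRNAs miR-132 and miR-212, induced by the transcription factor CREB in mammals, share the seed AACAGUC in 3 members, of which 2 passed on the control array. The zebrafish probe dre-miR-212 read 118.7 and 121.2 on the LPS array and 132.7 and 150.1 on the control array. The lamprey probe pma-miR-132-3p read 116.3 and 112.1 on the LPS array and 135.6 and 128.2 on the control array. Both probes passed detection through the control array alone, so nothing is read from the direction of their differences. After normalization their log2 differences were -0.04 ± 0.09 for dre-miR-212 and -0.03 ± 0.05 for pma-miR-132-3p. The third member with this seed, dre-miR-132-3p, differs from pma-miR-132-3p by A20U and 1 base of length and had means of 117.5 on the LPS array and 115.8 on the control array. The other 5 miR-132 and miR-212 probes, with other seeds, had means of 88.4 to 104.6 on the LPS array and 104.7 to 115.9 on the control array. Among them, pma-miR-212-3p begins with AACAGUC, which is not its seed because it starts at base 1. Its means were 88.4 on the LPS array and 110.6 on the control array.

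The miR-27 family, which shares a genomic cluster with miR-23 and miR-24 in vertebrates, had 10 probes and 1 detected, on the LPS array. The frog probe xtr-miR-27b read 99.4 and 209.0 on the LPS array and 107.2 and 107.2 on the control array. Only its second LPS spot passed, with a pixel SD of 138.9, against 7.32 for its repeat. The log2 difference was 0.89 ± 0.80. It was 0.09 without the second spots, and the authors' deposited table gave 0.01 on the LPS array and 0.02 on the control array, at or next to its lowest value. The zebrafish probe dre-miR-27b has the same bases and 1 more at its 3′ end, and its means were 102.9 on the LPS array and 118.7 on the control array. The zebrafish probe dre-miR-27c-3p, which differs from xtr-miR-27b by C11U, had a mean of 100.5 on the LPS array and, at 121.89 on the control array, was the undetected member nearest to the threshold there.

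The miR-181 family, abundant in developing lymphocytes of mammals, had 3 of 10 probes detected. On the 5p arm, the seed ACAUUCA was held by 5 probes, of which 0 passed on the LPS array and 2 on the control array. The lamprey probe pma-miR-181b-5p read 116.0 and 117.8 on the LPS array and 209.4 and 187.4 on the control array. The zebrafish probe dre-miR-181b read 83.7 and 94.2 on the LPS array and 160.1 and 154.9 on the control array. These were the brightest members on the control array. The empty spots nearest to dre-miR-181b also differed, at 80.7 on the LPS array and 112.5 on the control array. Those nearest to pma-miR-181b-5p stood at 97.4 and 104.1. The log2 differences were -0.52 ± 0.08 for pma-miR-181b-5p and -0.69 ± 0.08 for dre-miR-181b, both lower on the LPS array and under 2-fold. But the sign turned with median scaling (0.56 for pma-miR-181b-5p and 0.55 for dre-miR-181b) and with calibration spots (0.32 and 0.31). Neither was detected on the LPS array, so the size of the difference is not settled. With quantile normalization the bound was 1.11-fold lower for pma-miR-181b-5p, and there was no bound above 1 for dre-miR-181b. The bound does not hold under median scaling or calibration spots, where the sign turned. Both probes passed detection through the control array alone, so nothing is read from their direction. The authors' deposited table gave 19.45 on the LPS array and 49.96 on the control array for pma-miR-181b-5p, and 0.01 and 38.36 for dre-miR-181b. The probe dre-miR-181c differs from dre-miR-181b by A1C alone and was not detected, with means of 93.1 on the LPS array and 117.5 on the control array. The remaining pair with this seed, pma-miR-181a-5p and cin-miR-181, had means of 81.3 and 96.6 on the LPS array and 118.6 and 108.8 on the control array.

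On the 3p arm, dre-miR-181a-3p was detected on the LPS array. It read 183.2 and 127.7 on the LPS array and 131.5 and 103.6 on the control array, so the lower LPS spot lay below the higher control spot. The log2 difference was 0.86 ± 0.47, and 0.67 without the first spots. The authors' deposited table gave it 59.0 on the LPS array, the highest value of any member there, and 8.51 on the control array. The lamprey probe pma-miR-181a-3p differs by U16C alone and had means of 98.7 on the LPS array and 118.6 on the control array.

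The arrays differed in how their members passed. On the LPS array both repeat spots exceeded the threshold in 0 of 58 members, beside 16.3% of all probes, and each of the 4 detected members had 1 spot above the threshold and 1 below. On the control array both spots did so in all 6 detected members, beside 33.5% of all probes.

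Spots with a pixel SD above 0.5 of their median were found only on the LPS array, at 71 of 3372 miRNA spots (2.11%) and 11 of 304 empty spots. They included 4 spots of members, 1 each of pma-miR-144-3p, xtr-miR-27b, xtr-miR-27a and pma-miR-27b-5p. Without uneven spots, 2 members were detected on the LPS array, xtr-miR-146a and dre-miR-181a-3p (beside 18.3% of all probes), 6 on the control array and 8 on either, and 0 were counted as higher or lower. Empty spots in rows 1 to 36 had a median of 82.5 on the LPS array and 111.6 on the control array, whereas those from row 82 to the last row had 106.3 on the LPS array and 103.7 on the control array. With each spot set against its 10 nearest empty spots, 4 members were detected on the LPS array, beside 21.6% of all probes, and 12 on the control array, beside 42.3%.

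For context, 19 other miRNA families with known roles in vertebrate immune or blood cells were looked up, of which 18 were on the array and miR-486 was not. In the 8 that have amphioxus probes (let-7, miR-9, miR-22, miR-29, miR-31, miR-92, miR-125 and miR-210), 58.1% of the probes were detected on the LPS array (90) and 75.5% on the control array (117). These counts include 32 probes made for amphioxus, of which 28 were detected on the LPS array and 31 on the control array. In the 10 families that have no amphioxus probe, 2 of 52 probes were detected on the LPS array and 11 of 52 on the control array. Among these families are miR-23 and miR-24 of the miR-27 cluster. All 7 miR-23 probes were below the thresholds, and of the 3 miR-24 probes 0 were detected on the LPS array and 2 on the control array. The highest mean in these 10 families was that of xtr-miR-15a, at 396.7 on the LPS array and 757.0 on the control array.

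As a check of the tissue label, 13 of 23 probes of miRNA families that vertebrate epithelia make were detected on the LPS array and 18 of 23 on the control array. For miRNA families of ciliated cells the counts were 11 of 27 on the LPS array and 18 of 27 on the control array, for muscle families 6 of 40 and 21 of 40, and for neural families 11 of 30 and 16 of 30. Over all probes the shares were 20.1% on the LPS array and 38.4% on the control array, and these counts do not tell gill from other tissues. The 6 blood and endothelium families described here (miR-126, miR-142, miR-144, miR-150, miR-223 and miR-451) had 1 of 19 probes detected on the LPS array and 1 of 19 on the control array. These 19 include 0 amphioxus probes, against 6 in the epithelial, 11 in the ciliated cell, 3 in the muscle and 4 in the neural families. The counts are therefore not a like comparison.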

How the data were processed

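Spot intensities of 1 LPS and 1 control array were used as the authors deposited them. Per the file headers each is the median pixel intensity of a Cy3 spot, with the pixel SD beside it and no background column, for 3968 spots an array. The authors also deposited a table with 1 processed intensity per probe, made by background and scaling steps that the sources used here do not state. Neither the scanner nor the database release is given. Target sequences and names are those of the array files.

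Groups follow the agent in the labels. Detection compared the mean of the 2 repeat spots with the 95th percentile of the 304 empty spots on its own array. For differences, intensities of all spots were background-corrected (normexp, offset 50, limma 3.58.1 in R 4.3.3), converted to log2, quantile-normalized over miRNA spots and averaged over repeat spots. Higher or lower meant detected on at least 1 array, 2-fold different and with repeat spots apart. Every detected member passed on 1 array only, so nothing is read from the direction of any member's difference. For a lower bound of a fold, the dimmer array's value was the probe's own or the lowest of any probe detected there, whichever was greater, and no bound is given where repeat spots of the brighter array lay on both sides of its threshold. Only 1 array per group limits the precision, and each SE covers repeat spots. Edit distances were computed with edlib on whole sequences, and seeds are bases 2 to 8. The steps were tested on simulated spots with known answers. Only probes brighter on the control array than any member carried signal there, so the test does not cover signals as dim as the members'.

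Members and lists were chosen with earlier results of these data known. Every detected member is named. Of each family with none, the highest relative to the threshold is named, and the others are close relatives or known forms named after their values were seen. Alternatives covered detection thresholds, background correction, scaling, fold thresholds, single repeat spots and the deposited table. Median scaling and median difference scaling took their medians over only the probes detected on both arrays.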

Additional observations from a re-analysis of the deposited data

How the results depend on the processing

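No paired analysis was possible because each group has 1 array. Of the 58 members, 4 were detected on the LPS array, 6 on the control array and 10 on either. Over all probes the shares were 20.1%, 38.4% and 40.6%. With the highest empty spot as threshold the member counts were 0, 0 and 0, beside 11%, 19.2% and 19.3% of all probes. With the empty median plus 3 MADs, members numbered 1 on the LPS array, beside 17.1%, and 5 on either, beside 29.4%. At the 99th percentile 1 member passed on the LPS array, beside 13.8%. Requiring every repeat spot to pass gave 0 on the LPS array, beside 16.3%, and 6 on either, beside 33.6%. Without repeat spot 2 the LPS array had 2, beside 19.7%, and without repeat spot 1 it had 3, beside 19.9%. In the deposited table, members above the column median numbered 28 on the LPS array, 24 on the control array and 37 on either, where by construction 843 of the 1686 probes pass on each array and 66.3% on either. Chosen after seeing the data, the local empty spots gave 12 on the control array, beside 42.3% of all probes. Leaving out uneven spots, also chosen then, gave 2 on the LPS array, beside 18.3%.

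In brackets below are counts over all probes detected on either array, which numbered 684 with the processing described above. That number differed where a setting changed detection. Of the 10 detected members, 1 was higher on the LPS array (72). The count was 3 with an offset of 16 (82) and 0 with an offset of 200 (44). It was 8 with median scaling (314) and 6 with calibration spots (177). The deposited table gave 2 (161), a threshold of 1.5-fold 3 (110) and one of 3-fold 0 (18). Leaving out repeat spots gave 2 to 3 (94). Of the alternatives added later, median difference scaling gave 4 (65), both repeat spots above the threshold 0 (61), and no uneven spots 0 (63). Members lower on the LPS array numbered 0 (72). They numbered 1 with an offset of 16 (98), 1 at 1.5-fold (125) and 3 in the deposited table (289). The median log2 difference of detected members was 0.02, against 1.30 with median scaling, which put all detected probes at 0.94, and 1.05 with calibration spots, which put them at 0.70. The cause was not tested. The sign of the difference was the same in all 11 settings for pma-miR-144-3p, xtr-miR-146a and dre-miR-181a-3p, and in 5 for dre-miR-212 and 6 for pma-miR-132-3p. But pma-miR-144-3p, xtr-miR-146a and dre-miR-181a-3p passed detection through the LPS array alone, with 1 LPS spot each above the threshold. Nothing is therefore read from their sign. All settings reprocess the same arrays, and pma-miR-144-3p fell to 0.15 without repeat spot 2. Members within the spread of the empty spots were not detectable here, which does not show that their RNA is absent.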
